A study of Rattus norvegicus with 6 samples.

Results

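The 10 genes described here encode 7 ligands of the BMP and GDF family (Bmp2, Bmp4, Bmp5, Bmp6, Bmp7, Gdf5 and Gdf10) and 3 of their receptors (Bmpr1a, Bmpr1b and Bmpr2). They were chosen by gene symbol as BMP and GDF ligands of cartilage with their receptors, with earlier results of these data known. All 10 were found once each among 18923 genes of the files. The RNA-Seq compared primary chondrocytes of newborn female Sprague-Dawley rats, isolated from cartilage with collagenase and used at passage 1 or 2. The RA group was exposed for 24 h to 1 µM all-trans retinoic acid (RA), the vitamin A metabolite that binds nuclear retinoic acid receptors. The CON group had no RA over this time, and the medium of both was high-glucose DMEM with serum and antibiotics. The genotype was wild type in both groups. The labels name no vehicle for the CON group and do not say which animals each culture came from. Each group had 3 samples, which the methods call independent, and the p-values measure the spread between these samples. Poly(A) RNA was sequenced, and the values are read counts per gene and FPKM, which divides a count by gene length and by the total count of its sample.

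BMPs and GDFs are secreted dimers of the TGF-β superfamily. A ligand brings together a type I receptor, such as BMPR1A or BMPR1B, and a type II receptor, such as BMPR2, and the type I kinase then phosphorylates SMAD1, SMAD5 and SMAD9, which enter the nucleus with SMAD4 and switch on targets such as the Id genes. In cartilage these signals drive chondrocyte commitment and maturation, while secreted antagonists such as noggin and gremlin bind the ligands outside the cell.

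Total counts ran from 29370025 to 38007486 per sample, and a count of 0 allows at most 3 counts, or between 0.0789 and 0.102 CPM (counts scaled to a common library total), for counting error only. CON sample 1 stood apart. The chi-square of its counts over degrees of freedom was 39.4 against CON sample 2 and 63.5 against CON sample 3, while the other 4 pairs of samples within a group gave 6.40 to 8.13, so no pair agreed within sampling noise. Without CON sample 1 the uncalled log2 fold changes were 0.25 for Bmp2, 0.0094 for Bmp5, 0.0089 for Bmp6, -0.019 for Gdf5, -0.10 for Bmpr1a, -0.0077 for Bmpr1b and -0.072 for Bmpr2. All 11 chondrocyte markers checked were expressed, with a summed level of 8333 to 10306 FPKM in CON and 5237 to 5582 FPKM in RA. By the test used below 10 of the 11 were DEGs lower in RA, beside 2.29% of all tested genes. Sox9 was lower by the adjusted p alone. In bulk RNA, fewer cells of a type and less RNA per cell cannot be told apart. The macrophage marker Adgre1 and the endothelial marker Cdh5 had 0 or 1 count in every sample, and the leukocyte marker Ptprc had 0 to 5. Other genes of these lists were expressed, with 612 to 873 counts for Cd14, 42 to 48 for Cd68 and 236 to 441 for Egfl7. The sums of the 8 macrophage and leukocyte markers (13.8 to 15.0 FPKM in CON, 16.4 to 17.9 in RA, of which Cd14 made up 11.9 to 13.5 and 14.5 to 15.8) and of the 5 osteoblast markers with values (1.38 to 2.19 against 2.74 to 3.56, with Ibsp as the 1 DEG of 3 tested) were higher in RA, and so was that of the 5 muscle markers with values (4.59 to 5.72 against 6.80 to 7.57). The sums were not tested. Of the 4 macrophage and leukocyte markers tested, 0 passed the adjusted p (Cd14 at 0.138 by edgeR), and the muscle marker Des, at 0.0766, did not pass. Des made up 4.43 to 5.65 and 6.38 to 7.14 FPKM of the muscle sum, Myod1, on 4 to 25 counts, was the 1 DEG of 2 tested there (0 by limma on log2(FPKM + 1)), and Actn2, Ckm and Myh3 had 0 to 6 counts. The sums of the endothelial markers (5.49 to 8.03 against 6.22 to 6.85) and of the fibroblast and perichondrium markers (3956 to 5077 against 4984 to 5223, mostly Col1a1 and Col3a1) overlapped. Of the 8 fibroblast and perichondrium markers tested, 2 passed edgeR's adjusted p alone, with log2 fold changes of 0.44 for Pdgfra and -0.41 for Dcn. Over all tested genes 9.82% passed that adjusted p. Tnmd, at -0.77, did not pass (adjusted p = 0.103 by edgeR). By DESeq2, 1 of the 8 was a DEG. The part of these markers in the results below was not tested.

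The promoter windows of Gdf10 and Bmp4 are shown because these ligands were higher in RA and their start sites have a window in the reference. RefSeq's table for the rat build GRCr8 held a window for 6 of the 10 genes (Bmp4, Bmp5, Bmp6, Gdf10, Bmpr1a and Bmpr2), and the 250 bases upstream of the annotated start of Gdf10 and Bmp4 are printed 5′ to 3′ on the gene's own strand, with CG dinucleotides in capitals.
Gdf10, chr16:9243262-9243511, + strand: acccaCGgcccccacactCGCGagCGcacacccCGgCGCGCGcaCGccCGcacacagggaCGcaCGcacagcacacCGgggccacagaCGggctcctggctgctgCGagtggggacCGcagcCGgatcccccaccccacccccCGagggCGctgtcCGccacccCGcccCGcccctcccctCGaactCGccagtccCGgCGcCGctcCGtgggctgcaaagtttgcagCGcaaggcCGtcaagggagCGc
Bmp4, chr15:22101934-22102183, - strand: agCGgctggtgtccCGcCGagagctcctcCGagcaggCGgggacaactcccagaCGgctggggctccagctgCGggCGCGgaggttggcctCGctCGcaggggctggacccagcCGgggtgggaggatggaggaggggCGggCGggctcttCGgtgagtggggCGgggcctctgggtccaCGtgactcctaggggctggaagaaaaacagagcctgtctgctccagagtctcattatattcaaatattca
The Gdf10 window held 31 CG dinucleotides, more than 95.3% of the 33469 windows in the table, where the median was 5. That of Bmp4 held 17 and that of Bmpr2 23, against 11 for Bmp6, 4 for Bmp5 and 1 for Bmpr1a. Hexamers to which retinoic acid receptors can bind in pairs were searched on both strands. They were AGGTCA, its variant GGGTCA, then AGTTCA, and its variant GGTTCA. None of the 6 windows held any of these hexamers, alone or paired in the same direction with 1, 2 or 5 bases between, while 39.1% of all windows held at least one and 0.194%, 0.137% and 0.326% held such a pair with 1, 2 and 5 bases between. Only the first window listed for each gene was searched, while every window of the table counted in the percents. The result says only that these letters are not in these 250 bases.

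Of the 7 ligands, Gdf10, Bmp7 and Bmp4 were higher in RA than in CON, by 2.68-fold, 2.18-fold and 1.56-fold. Bmp2, Bmp5, Bmp6 and Gdf5 and the receptors Bmpr1a, Bmpr1b and Bmpr2 did not pass the test. Counts were compared with edgeR's quasi-likelihood test over 13438 genes that passed its filter on low counts, and all 10 genes passed that filter. A gene was called a differentially expressed gene (DEG) where its p, adjusted by Benjamini-Hochberg over all tested genes, was below 0.05 and its log2 fold change was above 0.58 or below -0.58. By this rule 3 of the 10 genes were DEGs, all 3 higher in RA, beside 4.96% of all tested genes, with 2.67% higher and 2.29% lower. Without the fold-change threshold 3 of the 10 passed, all higher, beside 9.82% of all tested genes (5.31% higher and 4.50% lower). In 4 of the 10 genes (3 higher and 1 lower in RA) the groups did not overlap in normalized counts, beside 31.9% of all tested genes, 16.8% higher and 15.1% lower. The median log2 fold change of the 10 was 0.056, and that of all tested genes was -0.0057.

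**Figure D1:**
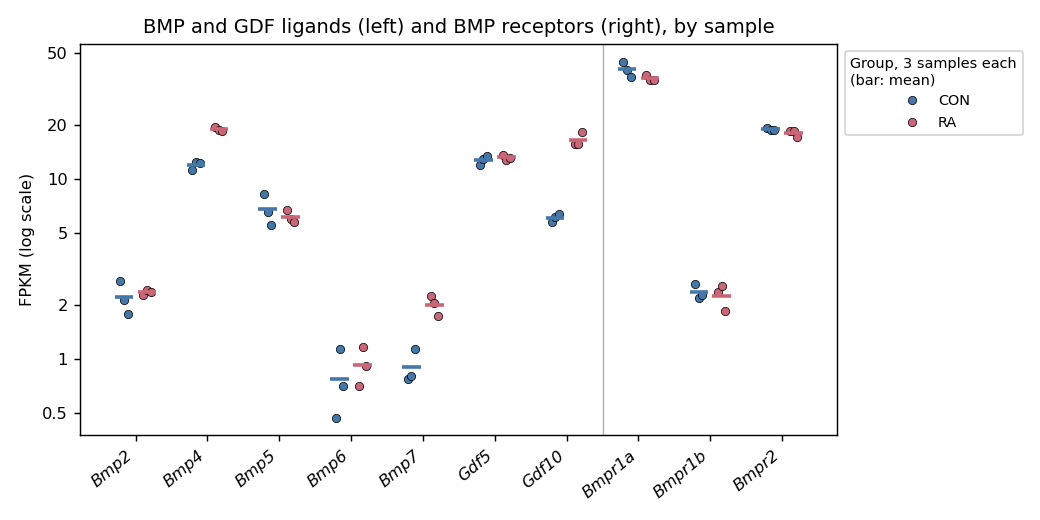
FPKM of each ligand and receptor gene (log axis) in the 3 CON samples and the 3 RA samples, with a bar at each group mean. The RA points of Bmp4, Bmp7 and Gdf10 lie above all CON points, and those of the other ligands overlap with CON.

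Gdf10 (ENSRNOG00000051993), also known as BMP3b, encodes a divergent member of the BMP3 branch. Its level was 5.78, 6.14 and 6.33 FPKM in CON samples 1, 2 and 3, and 15.5, 15.7 and 18.2 FPKM in RA samples 1, 2 and 3. The groups were far apart, with each RA sample above 15 FPKM and each CON sample below 7. Mean levels were 6.08 ± 0.279 for CON and 16.4 ± 1.49 for RA (SD, n = 3 each), and the log2 fold change was 1.42 (SE 0.0879), with an edgeR adjusted p = 5.59e-05. These values rest on 546 to 740 counts per CON sample and 1415 to 1729 per RA sample. Over fits that each left out 1 sample, its log2 fold change stayed between 1.34 and 1.47, and Gdf10 was a DEG in 6 of 6 fits.

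Bmp4 (ENSRNOG00000009694), a ligand of early skeletal and limb patterning, was measured at 11.2, 12.4 and 12.2 FPKM in the CON samples and at 19.3, 18.7 and 18.3 FPKM in the RA samples. Again the groups did not overlap, and both were narrow. From a mean of 12.0 ± 0.635 FPKM, Bmp4 rose to 18.8 ± 0.462 (SD, n = 3 each). Its log2 fold change was 0.64 (SE 0.0696, 95% confidence interval 0.48 to 0.80, adjusted p = 8.64e-04 by edgeR). The interval reaches below the fold-change threshold. Bmp4 remained a DEG in 6 of 6 fits that left out 1 sample, with log2 fold changes from 0.59 (without CON sample 1) to 0.66.

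Bmp7 (ENSRNOG00000053384), also called osteogenic protein 1, was expressed at a low level, with 48, 49 and 87 counts in the CON samples and 134, 122 and 108 counts in the RA samples. On the FPKM scale this was 0.772, 0.802 and 1.13 in CON and 2.23, 2.05 and 1.72 in RA, with no overlap. The means were 0.901 ± 0.199 for CON and 2.00 ± 0.257 for RA (SD, n = 3 each), and the log2 fold change was 1.13 (SE 0.212, adjusted p = 0.0122 by edgeR). Its call was less firm than those of Gdf10 and Bmp4. Bmp7 was not a DEG without CON sample 2 (log2 fold change 1.04, adjusted p = 0.0574 by edgeR), without RA sample 1 (1.05, adjusted p = 0.0605) or without RA sample 2 (1.10, adjusted p = 0.0566), while over all alternatives its adjusted p ran from 1.34e-04 to 0.0605. In limma fits on log2(FPKM + 1) its log2 fold change was 0.66, since the pseudocount weighs on low values.

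Gdf5 (ENSRNOG00000050123), a marker of joint-forming cells and a ligand that prefers BMPR1B, lay at 11.9, 12.9 and 13.4 FPKM in the CON samples and at 13.6, 12.7 and 13.1 FPKM in the RA samples. The groups lay on top of each other. Its log2 fold change was 0.03 (95% confidence interval -0.16 to 0.22, adjusted p = 0.857 by edgeR), an interval that excludes a change beyond the threshold in either direction.

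Bmp2 (ENSRNOG00000021276), an inducer of cartilage and bone, was at 2.70, 2.12 and 1.78 FPKM in CON and at 2.25, 2.42 and 2.36 FPKM in RA. The CON samples were spread over a wider range than the RA samples and enclosed them. The log2 fold change was 0.08 (95% confidence interval -0.29 to 0.45, adjusted p = 0.797 by edgeR). Bmp5 (ENSRNOG00000010917), the gene mutated in short-ear mice with skeletal defects, was at 8.22, 6.56 and 5.52 FPKM in CON and at 6.70, 5.95 and 5.76 FPKM in RA. As for Bmp2, CON sample 1 was the highest and CON sample 3 the lowest of all 6 samples. The log2 fold change of Bmp5 was -0.15 (95% confidence interval -0.47 to 0.17, adjusted p = 0.551 by edgeR), and without CON sample 1 it was 0.0094. Bmp6 (ENSRNOG00000013717), known for its role in maturing chondrocytes and in iron control, was the least abundant of the 10, with 22 to 52 counts per sample. Its FPKM was 0.471, 1.13 and 0.709 in CON and 0.709, 1.16 and 0.913 in RA. The groups overlapped, and CON sample 1 was the lowest of the 6. Bmp6 had a log2 fold change of 0.26 with a 95% confidence interval from -0.55 to 1.06 (adjusted p = 0.696 by edgeR), which reaches beyond the threshold on the upper side. Over the fits that left out 1 sample it ranged from 0.0089, without CON sample 1, to 0.62.

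Among the receptors, Bmpr1a (ENSRNOG00000052469), the type I receptor also known as ALK3, was the most abundant of the 10 genes in both groups. It lay at 44.6, 40.2 and 36.6 FPKM in CON and at 37.8, 35.2 and 35.4 FPKM in RA. CON sample 1 was the highest and CON sample 3 fell among the RA samples. Its log2 fold change was -0.18 (95% confidence interval -0.35 to just above 0, adjusted p = 0.208 by edgeR) and -0.10 without CON sample 1. Bmpr1b (ENSRNOG00000016289), the type I receptor ALK6 that is needed in early cartilage condensations, was at 2.61, 2.16 and 2.27 FPKM in CON and at 2.34, 2.53 and 1.84 FPKM in RA. The groups overlapped, and the log2 fold change was -0.08 (95% confidence interval -0.47 to 0.30, adjusted p = 0.800 by edgeR). Bmpr2 (ENSRNOG00000022196), the type II receptor, was at 19.1, 18.6 and 18.6 FPKM in CON and at 18.4, 18.3 and 17.0 FPKM in RA. Here the 3 RA samples were below the 3 CON samples, by a gap of 0.177 FPKM at the closest. The log2 fold change of Bmpr2 was -0.08 (95% confidence interval -0.22 to 0.06, adjusted p = 0.453 by edgeR), which excludes a change beyond the threshold. The ratio of Bmpr1a to Bmpr1b FPKM was 17.3 ± 1.24 for CON and 16.5 ± 2.69 for RA (SD, n = 3 each, p = 0.7, exact two-sided permutation test).

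**Figure D2:**
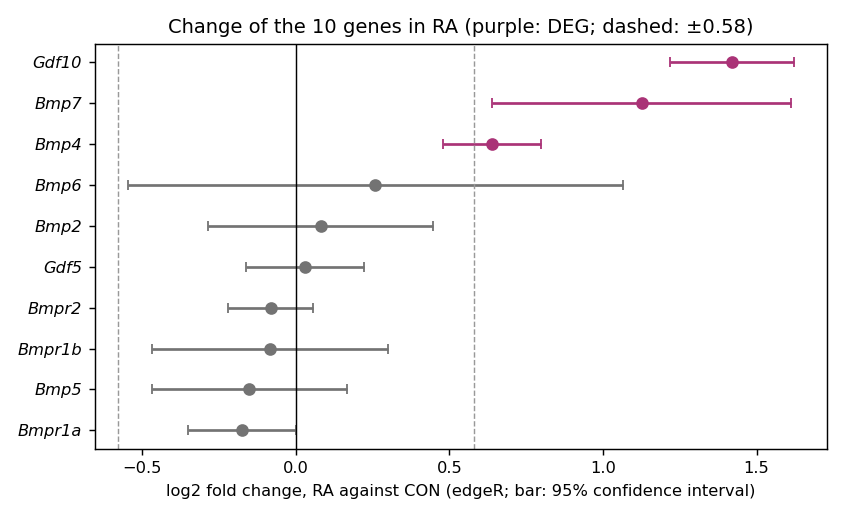
log2 fold change of each of the 10 genes, RA against CON (horizontal axis), with its 95% confidence interval and dashed lines at the threshold of 0.58 on both sides. Gdf10, Bmp7 and Bmp4, in purple, were DEGs, and the widest interval is that of Bmp6, from -0.55 to 1.06.

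The order of the levels on the FPKM scale shifted among the ligands. In CON the ligands followed as Gdf5 (12.7), Bmp4 (12.0), Bmp5 (6.77), Gdf10 (6.08), Bmp2 (2.20), Bmp7 (0.901) and Bmp6 (0.771). Of these neighbours, Gdf5 and Bmp4, Bmp5 and Gdf10, and Bmp7 and Bmp6 overlapped in their samples, as did Bmp2 with the receptor Bmpr1b. In RA the order was Bmp4 (18.8), Gdf10 (16.4), Gdf5 (13.1), Bmp5 (6.14), Bmp2 (2.34), Bmp7 (2.00) and Bmp6 (0.929). Here no pair of neighbouring ligands overlapped. Among the receptors the order was Bmpr1a, Bmpr2 and Bmpr1b in both groups, with no overlap. Bmpr2, at 18.8 FPKM in CON and 17.9 in RA, was above every ligand in CON, while in RA its samples overlapped with those of Bmp4 and Gdf10. Bmpr1b overlapped with Bmp2 and Bmp7 in RA.

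The summed level of the 7 ligands was 41.1, 42.1 and 41.1 FPKM in the CON samples and 60.2, 58.7 and 60.3 FPKM in the RA samples. No RA sample came near the CON range. The mean was 41.4 ± 0.595 for CON and 59.7 ± 0.941 for RA (SD, n = 3 each, p = 0.1, exact two-sided permutation test), which is the smallest p that 3 samples against 3 allow. Within the ligand sum, mean Gdf10 went from 6.08 to 16.4 FPKM and mean Bmp4 from 12.0 to 18.8. How much signal the ligands gave through the 3 receptors was not tested. The 3 receptors summed to 66.3, 61.0 and 57.5 FPKM in CON and to 58.5, 56.1 and 54.3 FPKM in RA, with overlapping groups (p = 0.2, exact two-sided permutation test).

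Each ligand was then expressed as a percent of this sum, which does not depend on scaling between samples. Gdf10 made up 14.1%, 14.6% and 15.4% of the ligand FPKM in CON and 25.7%, 26.7% and 30.1% in RA. Its mean share went from 14.7% ± 0.678 to 27.5% ± 2.29 (SD, n = 3 each). Gdf5 made up 30.7% ± 1.84 in CON and 22.0% ± 0.537 in RA, and Bmp5 16.4% ± 3.35 and 10.3% ± 0.797, while neither passed the test in its own level. Bmp4 made up 28.9% ± 1.31 in CON and 31.4% ± 0.903 in RA, and Bmp7 2.18% ± 0.497 and 3.35% ± 0.440. For Gdf10, Gdf5, Bmp5, Bmp4, Bmp7 and Bmp2 the groups did not overlap and the exact two-sided permutation test gave its smallest p of 0.1 (0.167 after Benjamini-Hochberg adjustment over 10 shares). As percents of summed counts, the Bmp4 and Bmp7 shares overlapped between the groups (p = 0.5 and p = 0.2, exact permutation test). The Bmp6 share was 1.86% ± 0.781 in CON and 1.56% ± 0.406 in RA, with overlap (p = 0.7, exact permutation test). Shares are percents of a sum, so a rise of one lowers the others. Among the receptors, Bmpr1a took 65.6% ± 1.79 of the summed FPKM in CON and 64.2% ± 1.27 in RA, and none of the 3 receptor shares separated the groups.

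**Figure D3:**
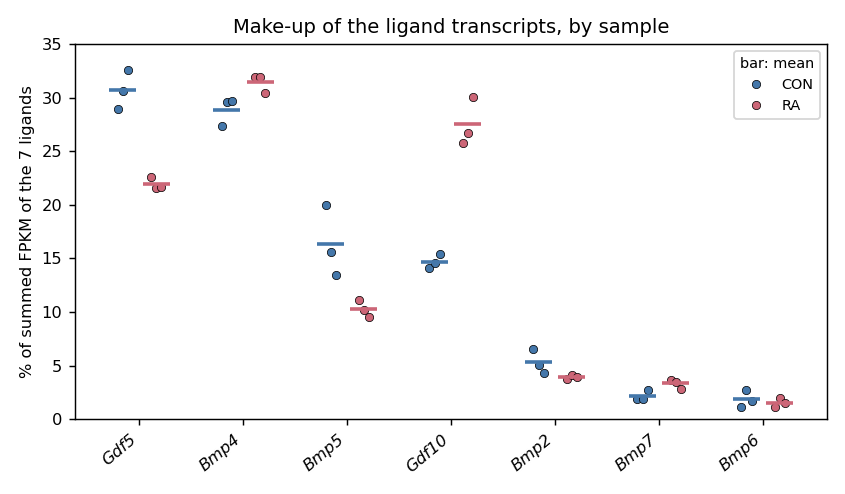
Percent of the summed FPKM of the 7 ligands taken by each ligand (vertical axis) in the 3 CON and 3 RA samples, with a bar at the group mean. Gdf10 lies at 14.1% to 15.4% in CON and at 25.7% to 30.1% in RA, and Gdf5 is lower in each RA sample than in each CON sample.

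The rest of the pathway was read from 6 lists with 81 further genes, chosen with earlier results of these data known. Of the 81 genes, 61 were tested. Of these 61 genes, 13 were DEGs (21.3%), 7 higher and 6 lower in RA, beside 4.96% of all tested genes. They lay mostly in the antagonists and the targets. Without CON sample 1 the number was 12, with 5 higher and 7 lower. Over all 61 tested genes of the lists the median log2 fold change was 0.016. The counts by list below stand beside the same 4.96% of all tested genes, with 2.67% higher and 2.29% lower.

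**Figure D4:**
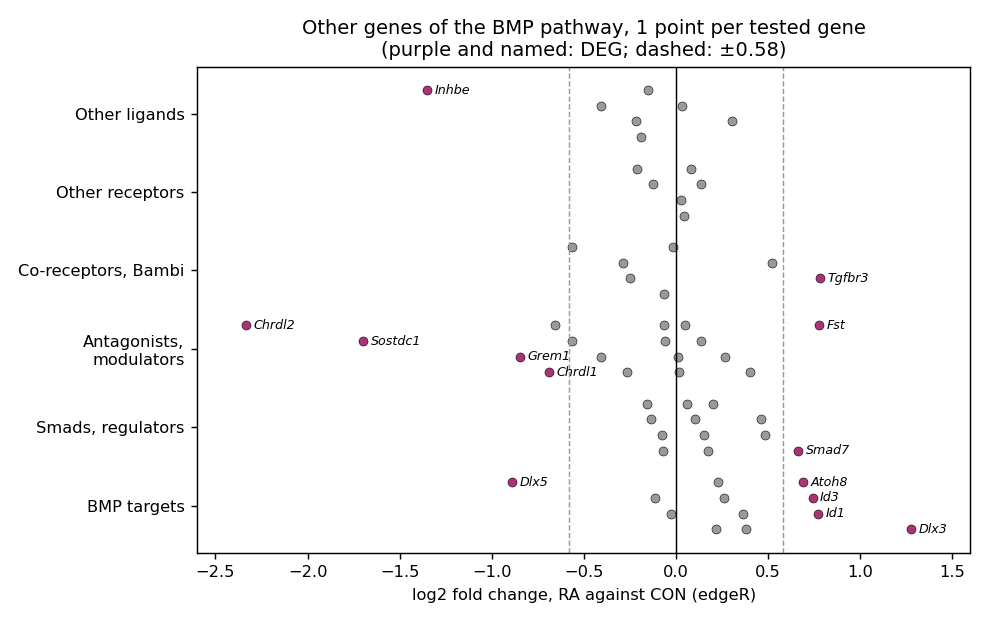
log2 fold change, RA against CON (horizontal axis), of the 61 tested genes of 6 BMP pathway lists, 1 point per gene, with dashed lines at 0.58 on both sides. The 13 named genes in purple were DEGs, and none of the other receptors was.

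Secreted antagonists and modulators were tested for 17 of 20 genes. Of these 17, 5 were DEGs, beside 4.96% of all tested genes, and 12 were not. Grem1, Chrdl1, Chrdl2 and Sostdc1 were DEGs lower in RA, and Fst was the only DEG of this list that was higher. The median of the list was -0.065, beside -0.0057 over all tested genes. Grem1, which encodes gremlin 1, a binder of BMP2, BMP4 and BMP7, was at 35.2, 32.5 and 28.9 FPKM in CON and at 21.0, 16.8 and 16.3 FPKM in RA. Every RA sample was below every CON sample, and the log2 fold change was -0.85 (SE 0.108, adjusted p = 0.00185 by edgeR). Chrdl2, which encodes a chordin-like antagonist of cartilage, was at 1.01, 1.29 and 0.927 FPKM in CON and at 0.125, 0.168 and 0.339 FPKM in RA, with 6 to 63 counts per sample. For Chrdl2 the log2 fold change was -2.34 (SE 0.372, adjusted p = 0.00570 by edgeR). The related Chrdl1 had -0.69 (adjusted p = 0.0247 by edgeR, with its alternatives between 0.00728 and 0.106) and was a DEG in 1 of 6 fits that left out 1 sample, the one without CON sample 1. Sostdc1 had -1.70 on 3 to 28 counts (adjusted p = 0.0475 by edgeR, with its alternatives between 0.0400 and 0.171) and was a DEG in 0 of those 6 fits (-1.60 and adjusted p = 0.0657 by edgeR without CON sample 1).

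Fst, which encodes follistatin, an antagonist of activins and of some BMPs, was at 5.50, 5.81 and 7.20 FPKM in CON and at 11.0, 10.7 and 10.5 FPKM in RA. The groups did not overlap, and the log2 fold change was 0.78 (adjusted p = 0.00771 by edgeR). Nog, which encodes noggin, was at 5.34, 7.15 and 6.82 FPKM in CON and at 4.41, 4.73 and 4.05 FPKM in RA. Its log2 fold change of -0.56 (adjusted p = 0.0419 by edgeR, with its alternatives between 0.00176 and 0.172) lay just inside the threshold, and without CON sample 1, the lowest CON sample, Nog was a DEG at -0.68. Chrd, which encodes chordin, had -0.41 on the log2 scale (adjusted p = 0.177 by edgeR, with its alternatives between 8.93e-05 and 0.382) and was a DEG only without CON sample 1, at -0.59. CON sample 1, at 6.62 FPKM, was there close to the RA samples at 6.56 to 7.15, while CON samples 2 and 3 were at 10.3 and 10.4. Nbl1 and Crim1, which encode further BMP-binding proteins, passed the adjusted p alone and were higher in RA, at log2 fold changes of 0.40 and 0.27.

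Of 13 BMP target genes, 12 were tested. Id1, Id3, Atoh8 and Dlx3 were DEGs higher in RA, Dlx5 was a DEG lower in RA, and 7 were not DEGs. The median of this list was 0.31, beside -0.0057 over all tested genes. Id1, the classic immediate target of SMAD1 and SMAD5 and an inhibitor of bHLH factors, was at 65.5, 87.0 and 86.8 FPKM in CON and at 141, 138 and 134 FPKM in RA. CON sample 1 was the lowest sample, and the log2 fold change of 0.77 (SE 0.110, adjusted p = 0.00328 by edgeR) was 0.65 without it. Id3 was at 169, 244 and 243 FPKM in CON and at 360.2, 377 and 372 FPKM in RA. The log2 fold change of Id3 was 0.74 (adjusted p = 0.00975 by edgeR) and 0.58 without CON sample 1, still a DEG. Id2 passed the adjusted p alone, at 0.38 on the log2 scale (adjusted p = 0.00570 by edgeR). Id4 did not pass, at -0.11 (adjusted p = 0.588 by edgeR), and its groups overlapped. Atoh8, a bHLH factor of chondrocytes, had 0.69 (adjusted p = 0.00674 by edgeR, with its alternatives between 8.79e-07 and 0.0375) and was 0.56 without CON sample 1, where it fell short of the fold-change threshold. Of the homeobox genes in this list, Dlx3 went from 0.800 ± 0.210 to 1.97 ± 0.109 FPKM and Dlx5 from 13.8 ± 0.774 to 7.50 ± 0.437 FPKM (SD, n = 3 each). Their log2 fold changes were 1.28 and -0.89, while Msx1 (0.36), Msx2 (-0.025) and Tgif1 (0.26) did not pass the test.

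Of the Smads and their regulators, 12 of 13 genes were tested and 1 was a DEG, the inhibitory Smad7, which is induced by BMP and TGF-β and closes the feedback loop. Smad7 was at 3.60, 4.86 and 4.78 FPKM in CON and at 7.58, 6.95 and 6.68 FPKM in RA. Its log2 fold change was 0.66 (adjusted p = 0.0109 by edgeR, with its alternatives between 1.81e-05 and 0.0580). The Smad7 call was lost without CON sample 1 (0.54) or without RA sample 1 (0.62). Smad6, the inhibitory Smad of the BMP branch, was at 6.03, 14.5 and 15.6 FPKM in CON and at 16.3, 15.7 and 19.1 FPKM in RA. CON sample 1 was far below the other 5 samples, and the log2 fold change of 0.49 (adjusted p = 0.364 by edgeR) was 0.17 without it. The signal carriers Smad1, Smad5 and Smad4 had log2 fold changes of 0.15, -0.13 and -0.16, with adjusted p of 0.198, 0.304 and 0.236 (edgeR). Without CON sample 1 these were 0.14, -0.066 and -0.088. Smad9 was not tested, with 73 counts in RA sample 1 and 1 to 6 in each other sample. Smurf2, a ubiquitin ligase of the pathway, passed the adjusted p alone, at 0.46.

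Tgfbr3, which encodes betaglycan, a co-receptor of TGF-β ligands and some BMPs, was the 1 DEG among 7 genes for co-receptors and the pseudoreceptor Bambi. It was at 9.91, 9.61 and 9.34 FPKM in CON and at 16.5, 15.7 and 17.8 FPKM in RA. Every RA sample was above every CON sample, at a log2 fold change of 0.78 (SE 0.0668, adjusted p = 2.37e-04 by edgeR). Neo1, which encodes the RGM receptor neogenin, was lower in RA by the adjusted p alone, from 69.0 ± 2.00 to 47.1 ± 1.17 FPKM (SD, n = 3 each), at a log2 fold change of -0.56. Eng, which encodes endoglin, was higher by the adjusted p alone, at 0.52. Of the other type I and type II receptors, 6 of 9 genes were tested and 0 were DEGs by edgeR. At an unadjusted p below 0.05 the number was also 0 by edgeR, DESeq2 and limma. Acvr1, another BMP type I receptor, had a log2 fold change of 0.04 (95% confidence interval -0.12 to 0.21, adjusted p = 0.756 by edgeR), and Acvr2a, a type II receptor, had -0.21 (95% confidence interval -0.47 to 0.05, adjusted p = 0.314 by edgeR). Without CON sample 1, Acvr1 was at -0.012 and Acvr2a at -0.082 on the log2 scale. Acvr2b was too low to be tested, at 0 to 0.379 FPKM. Of the other ligands, 7 of 19 genes were tested and Inhbe, which encodes the activin βE subunit, was the 1 DEG. Inhbe was at 5.19, 5.77 and 5.09 FPKM in CON and at 1.65, 2.31 and 2.37 FPKM in RA. All RA samples were below all CON samples, with a log2 fold change of -1.35 (SE 0.154, adjusted p = 0.00109 by edgeR).

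**Figure D5:**
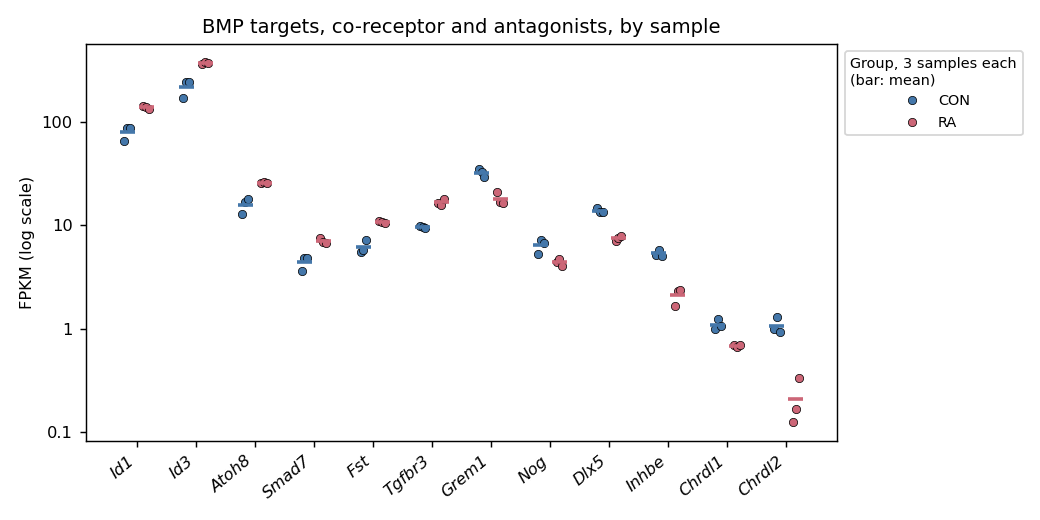
FPKM (log axis) of 12 further pathway genes in the 3 CON and 3 RA samples, with a bar at each group mean. Id1, Id3, Atoh8, Smad7, Fst and Tgfbr3 are higher and Grem1, Nog, Dlx5, Inhbe, Chrdl1 and Chrdl2 lower in every RA sample than in any CON sample, and CON sample 1, the leftmost point, is the lowest CON point of Id1, Id3, Atoh8 and Smad7.

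The genes most alike in pattern to each DEG of the family were sought by the Euclidean distance between log2 CPM over the 6 samples, each gene centred on its mean, among 11341 tested genes with a mean of at least 1 FPKM. Nearest to Bmp4 were Axl (distance 0.0575), Fbxo44 (0.0755) and Tnfrsf12a (0.0933). Among those nearest to Gdf10 were Entpd3 (0.178) and Tmem176b (0.197). For Bmp7 they were Ace (0.291), Cxcl10 (0.313) and Tnfaip2 (0.410). Their log2 fold changes, from 0.59 for Tnfrsf12a to 1.45 for Entpd3, were close to those of the genes they were matched to, as the measure requires. Leaving out 1 sample, Fbxo44 was a DEG in 0 of 6 fits, Cxcl10 in 3 and Tnfrsf12a in 4, and the other named neighbours in all 6. Without CON sample 1 the log2 fold change was 0.56 for Fbxo44 and 0.53 for Tnfrsf12a.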

How the data were processed

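Samples were grouped and numbered from the sample titles. The authors deposited, for each sample, a whole-number read count per gene, without normalization, and the FPKM of each gene. Of 18450 genes with a count, 18450 had the same implied length in all samples within 0.01 base, so FPKM holds no scaling beyond gene length and total count. The submitters' processing notes name HISAT2, HTSeq 0.13.5 and the build Rnor_6.0. The annotation release, the strand setting and the handling of reads shared by copies or overlapping genes are not given in the sources used here.

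Counts were fitted with edgeR 4.0.16 in R 4.3.3 (filterByExpr with its minimum count of 10, TMM, glmQLFit and glmQLFTest, all 6 samples, no covariates). Adjusted p-values run over all 13438 tested genes. Standard errors were derived from the F statistic, and the common biological coefficient of variation was 0.122. FPKM, as mean ± SD, gave levels, orders and shares. limma 3.58.1 and DESeq2 1.42.0 were alternatives. The scripts were tested on simulated data. The 10 genes and the lists were chosen with earlier results of these data known. The text names all 10 genes, every DEG of the pathway lists, a fixed set of 14 further pathway genes and the 3 nearest genes of each DEG, of which 1 is not reported here. Genes passing the adjusted p alone, the homeobox genes that did not pass, Id4, Smad9 and single marker genes were named after their values were seen.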

Additional observations from a re-analysis of the deposited data

How the results depend on the processing

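Gdf10 and Bmp4 were DEGs under all 16 alternatives with a test, and Bmp7 in 13 of 16, the exceptions being the fits without CON replicate 2, RA replicate 1 or RA replicate 2. The number of DEGs among the 10 genes was 3 with all samples and 2 to 3 with each sample left out. Over all genes, 667 DEGs became 434 in limma on log2(FPKM + 1), 1319 with no fold-change threshold and 1017 with the unadjusted p. The pathway count of 13 became 20 with no fold-change threshold. Signs of small, uncalled log2 fold changes turned with 1 sample left out. Over these 6 fits Bmp2 ranged from -0.045 (without CON replicate 3) to 0.25, Bmp5 from -0.27 to 0.0094 (without CON replicate 1), Gdf5 from -0.019 (without CON replicate 1) to 0.080, Bmpr1b from -0.19 to 0.039 (without RA replicate 3) and Acvr1 from -0.012 (without CON replicate 1) to 0.095. On the share scale, the RA minus CON difference of Bmp6 ranged from -0.65 to 0.12 percentage points (the latter without CON replicate 2) and that of Bmpr1b from -0.12 (without RA replicate 2) to 0.44. As percents of summed counts in place of FPKM, the differences of Bmp4, Gdf5 and Gdf10 were 1.17, -6.26 and 15.6 points, against 2.55, -8.76 and 12.8. Within a sample, shares of counts and of FPKM differ only by the lengths of the genes. The cause of the other moves was not tested. The labels link same-numbered samples of the groups by the number alone, and whether they share animals or a batch is not known. Correlations of their deviations were 0.071, -0.012 and 0.0042, and those of samples with unlike numbers ran from -0.10 to 0.097. A fit with the replicate block gave 684 DEGs in all, 3 of the 10 genes and 12 pathway genes, without Sostdc1 (adjusted p = 0.0644, edgeR). On summed counts the Bmp4 and Bmp7 shares overlapped (p = 0.5 and p = 0.2, exact permutation test). Counts were low for Bmp6 (22 to 52 per sample) and Sostdc1 (3 to 28), and the part of depth in their results was not tested. Shares could not reach a p below 0.1 with 3 samples against 3.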
